A study of Mus musculus with 4 samples.

Results

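Transcripts for the subunits of the nuclear RNA polymerases and of Mediator were compared between Snai1 knockout and control mouse embryonic stem (ES) cells. The genes were chosen by name, as those whose symbol begins with Polr1, Polr2 or Polr3 followed by a subunit letter, or with Med followed by a number, and that had a probe set annotated to exactly 1 gene. For each gene the brightest of its probe sets, by mean over the arrays, was used. This gave 56 genes of the 18193 compared, namely 5 of RNA polymerase I, 11 of RNA polymerase II, 9 of RNA polymerase III, 30 of Mediator, and Med9os, a noncoding antisense transcript at the Med9 gene that matched by name only. Polr2k, Polr2l and the polymerase I subunit genes Polr1f, Polr1g and Polr1h under these symbols had no such probe set and were not analysed here.

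There were 4 Affymetrix arrays of ES cells grown with leukaemia inhibitory factor on feeder cells, 2 of Snai1 knockout cells (titles KO.ES) and 2 of control cells (titles F/F.ES). Snai1 encodes Snail, a zinc finger repressor. F/F is not explained in the labels, the source name of the controls also carries the words knock out, and the sources used here give no strain, clone or means of deletion, so the direction of every difference rests on the titles and the genotype field. The replicates are called biological without saying what set them apart, so p-values speak only to how far these samples scatter, which may be technical, and the number of arrays limits the precision throughout.

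Cells divide transcription among 3 nuclear enzymes. RNA polymerase I makes the large ribosomal RNA precursor, RNA polymerase II makes messenger RNA, and RNA polymerase III makes transfer RNA, 5S ribosomal RNA and other short RNAs. Each is built on a pair of large catalytic subunits, and some of the small subunits are common to all of them. Mediator is a multisubunit coactivator that carries signals from factors bound at enhancers to RNA polymerase II at the promoter. It is divided into a head and a middle module, a tail that many activators bind, the scaffold subunit Med14 that joins them, and a detachable kinase module with Cdk8 or Cdk19, cyclin C, Med12 and Med13. In mouse ES cells Mediator is known for occupying the enhancers of genes bound by Oct4, Sox2 and Nanog.

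Several features of the arrays moved with the groups or varied between arrays. The gap between the 3' and the 5' control probe sets of Actb was 1.11 and 0.80 (log2) for knockout cells, against 3.02 and 2.97 for controls. That of Gapdh was 0.40 and 0.27 for knockout cells, against 1.24 and 1.48 for controls. Snai1 itself was at 3.79 and 4.04 in knockout cells, against 4.41 and 4.69 in controls (difference -0.63, adjusted p = 0.0692), all within the range of 27 probe sets for Bacillus transcripts (2.91 to 4.77), and the sources used here do not say whether that probe set reads the deleted sequence. Of 16 ES cell markers, 6 rose (37.5%, against 1.98% of all genes) and none fell (against 2.17%) in the knockout. Their mean level was 11.28 and 11.11 in knockout cells, against 10.70 and 10.73 in controls. The median difference over the 16 was only 0.08 (log2, knockout minus control), with 10 above zero and 6 below. It was largest for Klf5 (2.32) and Utf1 (1.62), and Sox2 was at -0.02. Of 24 measured fibroblast markers, which stand for feeder cells, 1 (Ccl2) rose (4.17%, against the same shares of all genes) and none fell. Their mean level was 7.31 and 6.72 for knockout cells (replicate 1, then 2), against 7.50 and 6.93 for controls in that order. The part of RNA integrity, of feeder RNA and of ES cell content in the differences below was not tested. In such bulk RNA, fewer cells of a type and less RNA per cell cannot be told apart.

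Among the 56 genes, 2 Mediator genes, Med24 and Med27, rose in the knockout at an adjusted p of 0.05. These were 3.57%, against 1.98% of all genes called higher and 3.51% of genes at a mean level of 6 or more. None fell, against 2.17% of all genes called lower and 3.77% of genes at that level. The test was limma, adjusted over all 18193 genes. At an unadjusted p of 0.05, 15 of the 56 lay higher (against 9.06% of all genes) and 7 lower (against 14.9%). Together these were 39.3% of the 56, against 23.9% of all genes and 38.9% of genes at a mean level of 6 or more. The share in both directions together was thus near that of genes with a similar level. The split was not, since 1348 of the 9484 genes at that level lay higher and 2338 lower. None of the 25 polymerase genes passed, and 9 of them had an unadjusted p under 0.05 (6 higher and 3 lower). With both directions together this was again near the share among brighter genes. Both knockout arrays lay above both control arrays for 21 genes (37.5%, against 23.1% of all genes) and below both for 15 genes (26.8%, against 29.2% of all genes), and in the other 20 genes the groups overlapped. In either direction the groups did not overlap for 64.3% of the 56, against 52.3% of all genes. Among genes at a mean level of 6 or more this was 63.6%, with 24.3% higher and 39.3% lower. Differences of 0.5 or more in size (log2, knockout minus control) were found for 17 of the 56 (30.4%, against 14.8% of all genes). Among all genes at a mean level of 6 or more, 25.2% differed by that much, and the 55 subunit genes lay between means of 5.75 and 11.92. Med9os was at 3.13 and 3.25 in knockout cells, against 3.22 and 3.27 in controls, within the background range.

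The 4 complexes had different median differences. The median was 0.24 over the 30 Mediator genes, 0.15 over the 11 polymerase II genes, -0.09 over the 9 polymerase III genes and -0.21 over the 5 polymerase I genes, against -0.02 over all genes and -0.09 over genes at a mean level of 6 or more. Of the Mediator genes 19 lay above zero and 11 below, of the polymerase II genes 9 above and 2 below, of the polymerase III genes 2 above and 7 below, and of the polymerase I genes 1 above and 4 below. Each shared subunit was counted only under the enzyme in its symbol. Polr2e, Polr2f and Polr2h (0.64, 0.50 and 0.06), common to polymerases I, II and III, thus entered polymerase II only. Polr1c and Polr1d (-0.21 and -0.12), common to I and III, entered polymerase I only. The medians and signs of the polymerases depend in part on this choice. After removal of the trend of each array with genomic span and mean level, polymerase II had 6 above and 5 below (median 0.042), polymerase III 4 and 5 (-0.099), polymerase I 2 and 3 (-0.14) and Mediator 18 and 12 (0.20). Within arrays, the median deviation from the mean of each gene was 0.041 and 0.17 for Mediator in knockout cells, against -0.10 and 0.0052 in controls. For polymerase II it was -0.012 and 0.23 in knockout cells, against -0.22 and -0.0060 in controls, so the second knockout array and the first control array stood farthest apart. For polymerase I it was -0.14 and -0.10 in knockout cells, against 0.03 and 0.22 in controls, and for polymerase III -0.09 and -0.07, against -0.06 and 0.16. These are descriptions, since subunits are not replicates of a condition. With every probe set of a gene averaged in place of the brightest, the medians were 0.13 for Mediator and -0.018 for polymerase I, so the spread among complexes depended in part on which probe set stood for a gene.

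**Figure D1:**
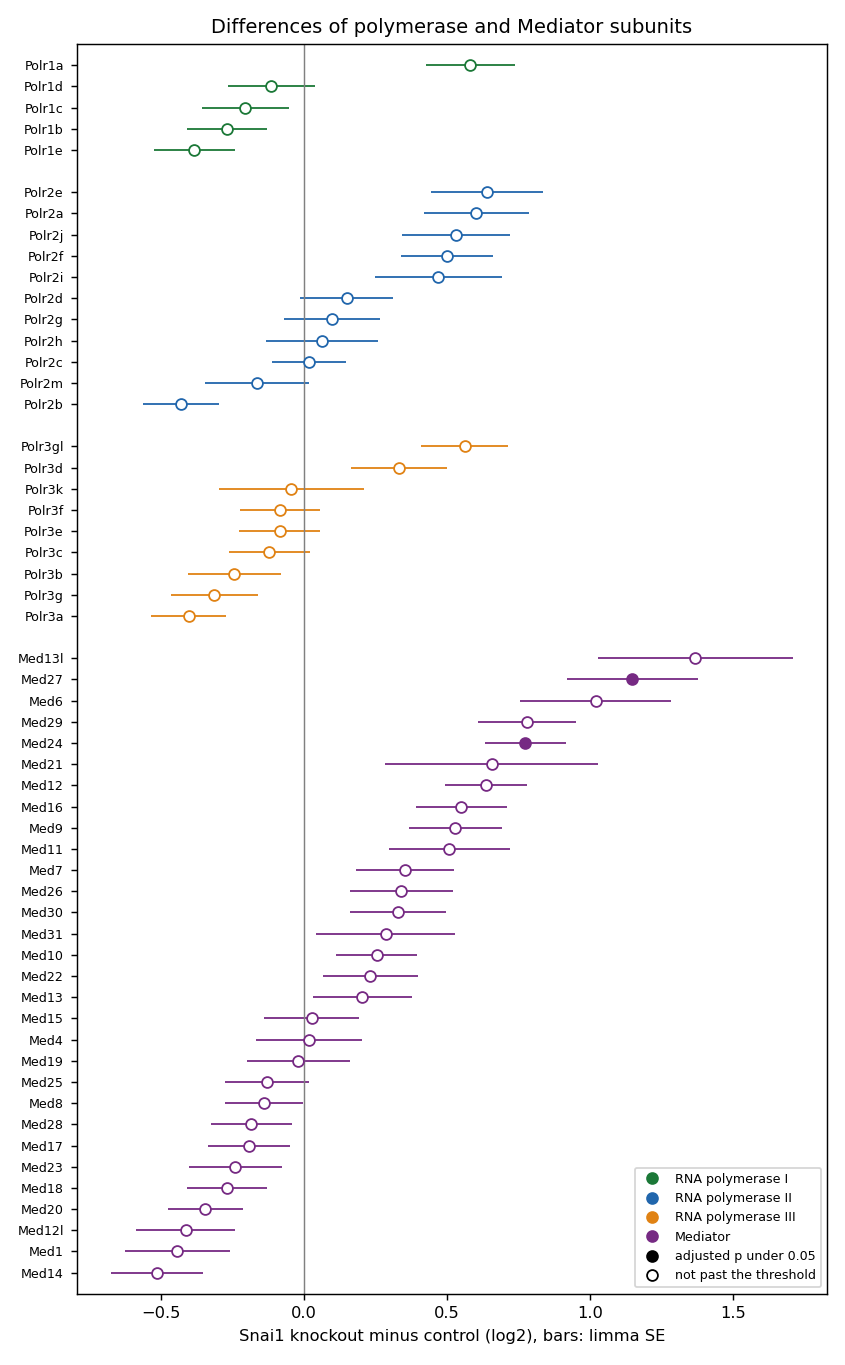
Log2 difference, Snai1 knockout minus control, of the 55 polymerase and Mediator subunit genes, ordered within each complex, with bars for limma's standard error. Filled points (Med24 and Med27) passed the threshold. Mediator genes range from -0.52 (Med14) to 1.37 (Med13l), and the polymerase genes from -0.43 (Polr2b) to 0.64 (Polr2e).

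Med27 had the larger of the called rises. It was at 7.01 and 7.58 in knockout cells, against 5.92 and 6.37 in controls. Both knockout arrays lay above both controls, by a log2 difference of 1.15 ± 0.23 (SE, limma adjusted p = 0.0453), which is a 2.22-fold difference. Med27 is a Mediator subunit placed at the junction of head and tail, and a single probe set measured it. Med24, a tail subunit that assembles with Med16 and Med23 in mammalian Mediator, was at 8.09 and 8.01 in knockout cells, against 7.17 and 7.38 in controls. The groups did not overlap, and the difference was 0.77 ± 0.14 (SE, limma adjusted p = 0.0418), or 1.71-fold. The only other probe set of Med24, at a mean within the background range, differed by 0.06. Neither gene passed with any 1 array left out. Without knockout replicate 1, knockout replicate 2, control replicate 1 and control replicate 2 in turn, the adjusted p was 0.0909, 0.142, 0.145 and 0.137 for Med24 and 0.0652, 0.162, 0.156 and 0.134 for Med27. Both also missed the threshold when a gene's probe sets were averaged (adjusted p = 0.117 for Med24 and 0.0582 for Med27), and Med24 missed it with an intensity trend in the fit (adjusted p = 0.0552).

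Because the deleted gene encodes a DNA-binding repressor, the RefSeq promoter windows of the subunits (GRCm38.p6, 250 bases before to 50 after an annotated start) were searched for CAGGTG, the E-box bound by Snail proteins, on both strands. Windows were found for 47 of the 55 subunit genes, 53 in all. The E-box letters were in 6 of these 53 (11.3%), those of Med27, Polr1d, Polr2c, Polr2j, Polr2m and Polr3k, against 20.2% of all 32851 windows. Of the 2 called genes Med27 had windows in the table, at chr2:29346560-29346859 and chr2:29378264-29378563 on the plus strand. They are shown because it is the called gene with the larger rise, with any E-box in capitals. Such a match describes letters in a window and not a bound site.
Med27 upstream start: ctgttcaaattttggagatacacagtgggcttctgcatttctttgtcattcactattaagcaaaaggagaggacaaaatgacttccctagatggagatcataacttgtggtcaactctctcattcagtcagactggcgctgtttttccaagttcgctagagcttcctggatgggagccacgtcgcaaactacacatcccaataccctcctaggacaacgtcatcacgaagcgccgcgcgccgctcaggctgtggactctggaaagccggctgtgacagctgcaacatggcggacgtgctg
Med27 downstream start: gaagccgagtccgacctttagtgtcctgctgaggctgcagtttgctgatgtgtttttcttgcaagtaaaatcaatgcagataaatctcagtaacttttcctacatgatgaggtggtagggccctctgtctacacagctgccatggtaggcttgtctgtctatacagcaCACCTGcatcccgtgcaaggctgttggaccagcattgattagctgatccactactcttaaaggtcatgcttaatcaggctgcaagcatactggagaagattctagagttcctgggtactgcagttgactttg
The E-box, read as CACCTG on this strand, lies in the window of the downstream start, and the upstream window holds none. The ETS core CCGGAAG, again on both strands, was in 16 of the 53 subunit windows (30.2%) against 8.86% of all windows, and TATAAA was in 5 (9.43%) against 13.6%. None of the windows with the ETS core belonged to Med27, and among their 15 genes were Med14, Med17, Polr1c and Polr3g.

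The tail and its neighbours held further Mediator genes that lay higher in the knockout without passing the threshold. Med29, the mammalian counterpart of Drosophila Intersex, was at 8.43 and 8.79 in knockout cells, against 7.71 and 7.95 in controls (difference 0.78 ± 0.17, SE, adjusted p = 0.0512). Its arrays did not overlap. Med16 of the tail was at 8.23 and 8.40 in knockout cells, against 7.92 and 7.61 in controls (0.55 ± 0.16, SE, adjusted p = 0.0897). Med23, a tail subunit that receives signals from Ras through the activator Elk1, lay the other way, at 8.80 and 8.45 in knockout cells, against 8.82 and 8.91 in controls (-0.24 ± 0.16, SE, adjusted p = 0.433), so the differences of Med16, Med23 and Med24 did not share a sign. Med15 and Med25, tail subunits known as targets of activators, had overlapping groups, with differences of 0.03 and -0.13. Med28 and Med30 differed by -0.18 and 0.33.

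In the kinase module, Med12, which activates Cdk8 through cyclin C, was at 7.48 and 7.26 in knockout cells, against 6.73 and 6.74 in controls. Both knockout arrays lay higher, with a difference of 0.64 ± 0.14 (SE) that just missed the threshold (adjusted p = 0.0526). Its paralog Med12l, at a mean of 5.75, differed by -0.41 ± 0.17 (SE, adjusted p = 0.201), and by -0.23 without control replicate 1. Med13, which ties the kinase module to the rest of Mediator, was at 8.27 and 7.89 in knockout cells, against 7.98 and 7.77 in controls, groups that overlapped (0.20 ± 0.17, SE). The brightest probe set of its paralog Med13l had the largest difference among these 56 genes, at 10.10 and 9.72 in knockout cells, against 9.11 and 7.96 in controls. The control arrays lay far apart, and the difference of 1.37 ± 0.34 (SE) did not pass (adjusted p = 0.0652). It passed without control replicate 1 (1.94, adjusted p = 0.0464) and in none of the other 3 fits that left out an array, with 0.79 (adjusted p = 0.174) without control replicate 2.

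Of the 3 partners that complete the kinase module, Cdk8, the Mediator kinase, fell. It was at 10.17 and 10.04 in knockout cells, against 10.83 and 10.79 in controls, a difference of -0.71 ± 0.13 (SE, adjusted p = 0.0429). Cyclin C (Ccnc) was at 8.81 and 8.87 in knockout cells, against 9.10 and 9.22 in controls (-0.31 ± 0.13, SE, adjusted p = 0.209), and Cdk19, the paralog of Cdk8, overlapped between groups (-0.04 ± 0.18, SE). Cdk8 did not pass with any 1 array left out (adjusted p = 0.0783 to 0.171) or after the trend of each array with genomic span and mean level was removed (-0.47, adjusted p = 0.0806).

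In the scaffold and the middle module, Med14, on which the core of Mediator is assembled, was at 9.39 and 9.03 in knockout cells, against 9.78 and 9.67 in controls. It lay lower in both knockout arrays, by -0.52 ± 0.16 (SE, 95% interval -0.90 to -0.13, adjusted p = 0.107), the lowest of the Mediator differences. Med1, the middle subunit contacted by nuclear receptors, was at 9.14 and 8.66 in knockout cells, against 9.41 and 9.28 in controls (-0.44 ± 0.18, SE, adjusted p = 0.198). Without knockout replicate 2 these differences were -0.34 for Med14 and -0.20 for Med1, and Med1 was at -0.69 without knockout replicate 1. The remaining 8 middle subunits differed by -0.02 to 0.66. The highest of these was Med21, at 8.92 and 10.09 in knockout cells, against 8.52 and 9.18 in controls, where the groups overlapped and the knockout arrays lay farther apart than the group means (adjusted p = 0.346). With an array left out Med21 differed by 0.075 to 1.24. Med26, which links Mediator to elongation factors, differed by 0.34 ± 0.18 (SE).

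Head subunits, which contact RNA polymerase II, divided in direction. By the brightest probe sets, in all 7 the groups did not overlap (against 52.3% of all genes and 63.6% of those at a mean level of 6 or more), higher in the knockout for Med6, Med11 and Med22 and lower for Med8, Med17, Med18 and Med20. In the second bright probe sets of Med6 and Med20 the groups overlapped (-0.02 and -0.10), that of Med6 at a mean of 8.75 against 8.79 for the brightest. Med6 was at 8.87 and 9.73 in knockout cells, against 8.18 and 8.38 in controls (1.02 ± 0.26, SE, adjusted p = 0.0696). Without knockout replicate 2 the difference of Med6 was 0.59. Med11 differed by 0.51 ± 0.21 (SE), and by 0.26 without knockout replicate 2 and 0.31 without control replicate 1, and Med20 by -0.35 ± 0.13 (SE, adjusted p = 0.168). Med18 and Med20 form a pair on the head and both lay lower, Med18 by -0.27 ± 0.14 (SE). The median over the head was -0.14 and over the middle 0.28.

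**Figure D2:**
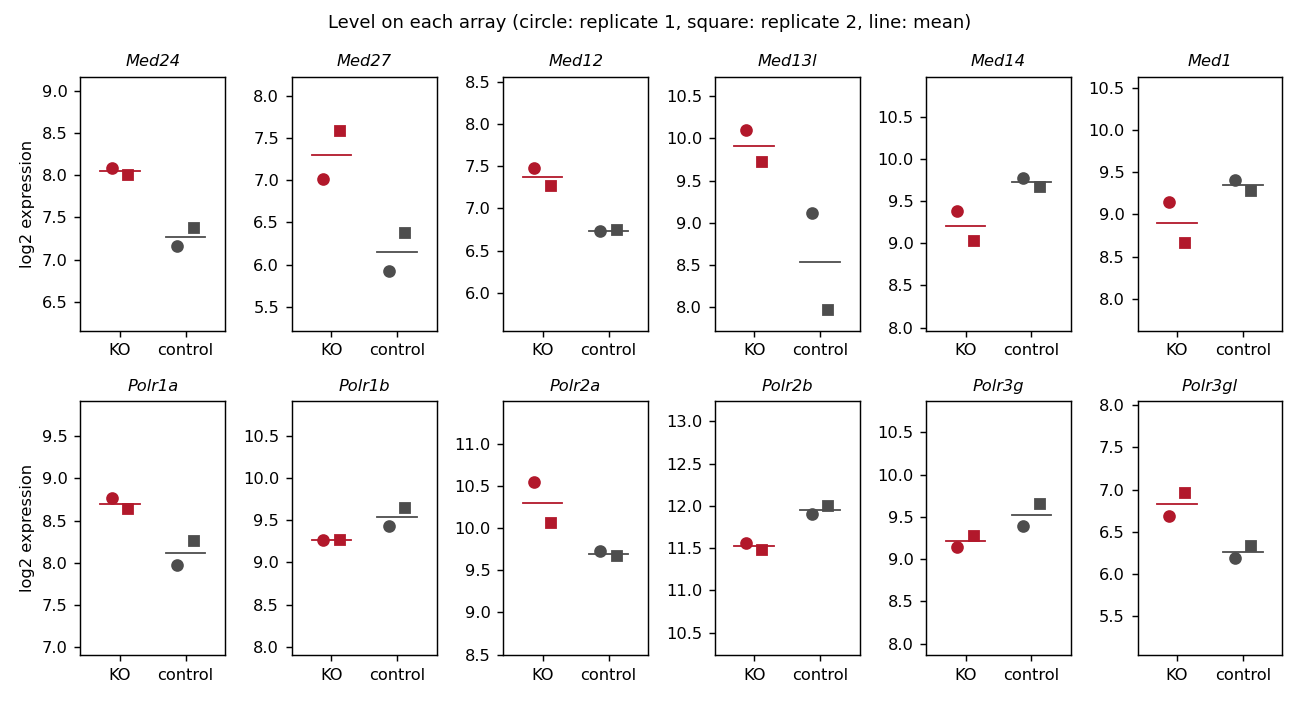
Log2 expression of 12 genes on each array, in knockout (KO, red) and control (grey) cells, with circles for replicate 1, squares for replicate 2 and lines for group means; every panel spans the same range of log2 units. The 12 genes were picked for display, and Med13, whose groups overlapped, is not shown. In all 12 the knockout arrays do not overlap the controls, which held for 64.3% of the 56 genes and 52.3% of all genes. Med13l shows the wide gap between its control arrays.

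RNA polymerase II is known for the long repetitive tail of its largest subunit, Polr2a, which is phosphorylated as transcription starts. Polr2a was at 10.54 and 10.05 in knockout cells, against 9.73 and 9.67 in controls. Polr2b, its catalytic partner, was at 11.56 and 11.48 in knockout cells, against 11.90 and 12.00 in controls. The arrays of both genes did not overlap, and the differences had opposite signs, 0.60 ± 0.18 (SE, 95% interval 0.17 to 1.03, adjusted p = 0.0984) for Polr2a and -0.43 ± 0.13 (SE, 95% interval -0.75 to -0.12, adjusted p = 0.104) for Polr2b. Without knockout replicate 1 the difference of Polr2a was 0.36. The promoter windows of this catalytic pair are printed because the pair lay in opposite directions. They lie at chr11:69758584-69758883 on the minus strand for Polr2a and at chr5:77310234-77310533 on the plus strand for Polr2b, with TATAAA in capitals.
Polr2a: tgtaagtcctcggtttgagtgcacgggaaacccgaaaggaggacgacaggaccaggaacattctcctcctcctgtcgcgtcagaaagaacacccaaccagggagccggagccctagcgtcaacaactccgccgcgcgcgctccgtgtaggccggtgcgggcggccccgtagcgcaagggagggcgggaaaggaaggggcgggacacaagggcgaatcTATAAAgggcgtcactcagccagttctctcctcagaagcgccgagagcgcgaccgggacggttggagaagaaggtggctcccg
Polr2b: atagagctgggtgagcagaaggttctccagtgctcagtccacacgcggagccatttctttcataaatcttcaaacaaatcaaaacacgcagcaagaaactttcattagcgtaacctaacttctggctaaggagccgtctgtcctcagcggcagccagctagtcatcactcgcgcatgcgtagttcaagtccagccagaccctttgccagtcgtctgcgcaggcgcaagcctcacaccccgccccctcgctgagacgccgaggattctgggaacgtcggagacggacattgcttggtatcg
Polr2a holds TATAAA in this window, and Polr2b holds none of the 3 motifs searched.

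The small subunits of RNA polymerase II lay higher or overlapped. Polr2e, which all 3 nuclear polymerases share, was at 11.37 and 11.59 in knockout cells, against 10.58 and 11.09 in controls (0.64 ± 0.20, SE, adjusted p = 0.0998), the highest among the polymerase genes. Polr2f, also shared by all 3, was at 11.25 and 11.61 in knockout cells, against 10.90 and 10.96 in controls (0.50 ± 0.16, SE, adjusted p = 0.112). The third shared subunit measured, Polr2h, had overlapping groups and differed by 0.06 ± 0.20 (SE). Polr2j was at 11.06 and 11.50 in knockout cells, against 10.61 and 10.89 in controls (0.53 ± 0.19, SE, adjusted p = 0.141), whereas Polr2c, with which it pairs during assembly of the enzyme, was at 11.34 and 11.38 in knockout cells, against 11.35 and 11.34 in controls (0.02 ± 0.13, SE, 95% interval -0.29 to 0.32). Polr2i, a small subunit that acts in fidelity, had overlapping groups and differed by 0.47 ± 0.22 (SE, adjusted p = 0.259). Several of these rested in part on 1 array, with 0.38 for Polr2e without control replicate 1, 0.32 for Polr2f and 0.31 for Polr2j without knockout replicate 2, and 0.22 to 0.72 for Polr2i with an array left out. Polr2d and Polr2g, the stalk of the enzyme, differed by 0.15 and 0.10, and Polr2m, a factor that makes the enzyme dependent on Mediator, by -0.17.

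In RNA polymerase I the catalytic pair also had differences of opposite sign. Polr1a, the largest subunit, was at 8.77 and 8.63 in knockout cells, against 7.98 and 8.26 in controls, a difference of 0.58 ± 0.15 (SE, adjusted p = 0.0733). Polr1b, its partner in the active centre, was at 9.27 in both knockout arrays, against 9.44 and 9.64 in controls (-0.27 ± 0.14, SE, adjusted p = 0.301). Polr1e, a peripheral subunit, was at 8.88 and 8.97 in knockout cells, against 9.21 and 9.41 in controls (-0.38 ± 0.14, SE, adjusted p = 0.156). Polr1c and Polr1d are shared by polymerases I and III and are mutated in Treacher Collins syndrome in humans. Their brightest probe sets had overlapping groups, with differences of -0.21 ± 0.15 and -0.12 ± 0.15 (SE). The other probe set of Polr1c differed by 0.17, with overlapping groups. Those of Polr1d differed by 0.28, 0.03 and 0.56, and at 0.28 and 0.56 both knockout arrays lay above both controls. The sign for these 2 genes thus depended on the probe set.

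In RNA polymerase III both catalytic subunits lay lower. Polr3a was at 9.48 and 9.39 in knockout cells, against 9.85 and 9.84 in controls (-0.40 ± 0.13, SE, adjusted p = 0.115), and Polr3b at 8.23 and 8.16 in knockout cells, against 8.25 and 8.62 in controls (-0.24 ± 0.16, SE, adjusted p = 0.432). Of the subunits that form a detachable initiation trimer, Polr3c and Polr3f differed by -0.12 and -0.09 with overlapping groups. The remaining member of that trimer exists as a pair of paralogs, Polr3g, known in human ES cells for its high level before differentiation, and Polr3gl, which is broadly expressed. Polr3g was at 9.14 and 9.28 in knockout cells, against 9.39 and 9.66 in controls (-0.31 ± 0.15, SE, 95% interval -0.67 to 0.04, adjusted p = 0.267). Polr3gl was at 6.69 and 6.96 in knockout cells, against 6.19 and 6.33 in controls (0.56 ± 0.15, SE, 95% interval 0.20 to 0.92, adjusted p = 0.0765). In neither paralog did the groups overlap, and the signs were opposite, but neither passed the threshold. Their promoter windows are set side by side as those of the only pair of alternative subunits measured here among the polymerases, at chr13:81710964-81711263 for Polr3g and chr3:96594132-96594431 for Polr3gl, both on the minus strand, with the ETS core, read as CTTCCGG, in capitals.
Polr3g: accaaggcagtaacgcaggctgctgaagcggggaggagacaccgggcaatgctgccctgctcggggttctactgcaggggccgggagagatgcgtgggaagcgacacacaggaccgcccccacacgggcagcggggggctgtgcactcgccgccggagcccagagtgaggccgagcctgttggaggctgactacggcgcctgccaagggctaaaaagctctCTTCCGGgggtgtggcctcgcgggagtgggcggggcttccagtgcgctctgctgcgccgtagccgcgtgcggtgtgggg
Polr3gl: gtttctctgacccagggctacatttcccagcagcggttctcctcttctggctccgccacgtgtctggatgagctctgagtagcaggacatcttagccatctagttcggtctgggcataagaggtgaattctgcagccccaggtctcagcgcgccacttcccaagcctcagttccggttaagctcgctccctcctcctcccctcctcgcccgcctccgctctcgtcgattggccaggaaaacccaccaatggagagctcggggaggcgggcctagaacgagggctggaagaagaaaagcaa
The ETS core is in the window of Polr3g, and the window of Polr3gl holds none of the 3 motifs. Among the other polymerase III subunits, Polr3d was at 8.72 and 8.68 in knockout cells, against 8.17 and 8.57 in controls (0.33 ± 0.17, SE, adjusted p = 0.290), and Polr3e, its partner, differed by -0.09 ± 0.14 (SE). Polr3k, known for its part in termination, had overlapping groups (-0.04 ± 0.25, SE).

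By their brightest probe sets, 2 of the 6 large catalytic subunits (Polr1a and Polr2a) lay higher in both knockout arrays than in both controls. The other 4 (Polr1b, Polr2b, Polr3a and Polr3b) lay lower, and the median difference over the 6 was -0.26. In the second bright probe sets of Polr2a, Polr3a and Polr3b the groups overlapped. Among the 19 other polymerase genes the groups overlapped for 12, and the median was 0.02. The median genomic span was 38.6 kb for the 6 catalytic subunits and 7.55 kb for the 19 others. Over all genes at a mean level of 6 or more, the median difference was 0.11 for spans under 10 kb. It was -0.09 for 10 to 40 kb and -0.27 for 40 kb or more. The part of span in this contrast was not tested. Over all 25 polymerase genes the groups did not overlap for 52%. This stands against 52.3% of all genes and 63.6% of those at a mean level of 6 or more. No test was made between these sets.

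Other probe sets of the same genes often gave another answer. Of the 119 probe sets of these 56 genes 82 had a mean of 6 or more, and 19 genes had at least 2 of these. In 11 of the 19 the differences had mixed signs (57.9%, against 46.6% of 3534 genes with at least 2 such probe sets), and in 6 they ranged over 1 log2 unit or more (31.6%, against 15.7%). The widest range was that of Med13l. Its second probe set, taken from the same source sequence, was at 8.90 and 8.31 in knockout cells, against 9.15 and 9.08 in controls, a difference of -0.51 ± 0.21 (SE) against 1.37 for the brightest. The second probe set of Med6 differed by -0.02 ± 0.29 (SE) and that of Med9, a middle subunit, by -0.60 ± 0.14 (SE), where the brightest had differed by 1.02 and 0.53. For Polr2a and Polr2f the second probe sets, far dimmer than the first, differed by 0.01 each.

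In Polr1a all 3 bright probe sets lay higher in the knockout, by 0.58, 1.77 ± 0.37 (SE) and 0.33, and the arrays did not overlap in any of them. The probe set at 1.77 was at 7.88 and 8.34 in knockout cells, against 6.90 and 5.77 in controls. Both bright probe sets of Polr3d lay higher, by 0.33 and 0.38. Those of Polr1e and Med20 all had differences below zero, with overlapping groups in the dimmer of each. Polr3f, Polr3k and Med1 had probe sets on both sides, from -0.60 to 0.91, from -0.77 to 0.29 and from -0.56 to 0.44. With all 119 tested singly among the probe sets of all genes, none passed. The brightest probe sets of Polr1c, Polr1d, Polr1e, Polr2e and Polr3b are of the kinds that the array's naming marks as shared with other transcripts, so their levels are uncertain.

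**Figure D3:**
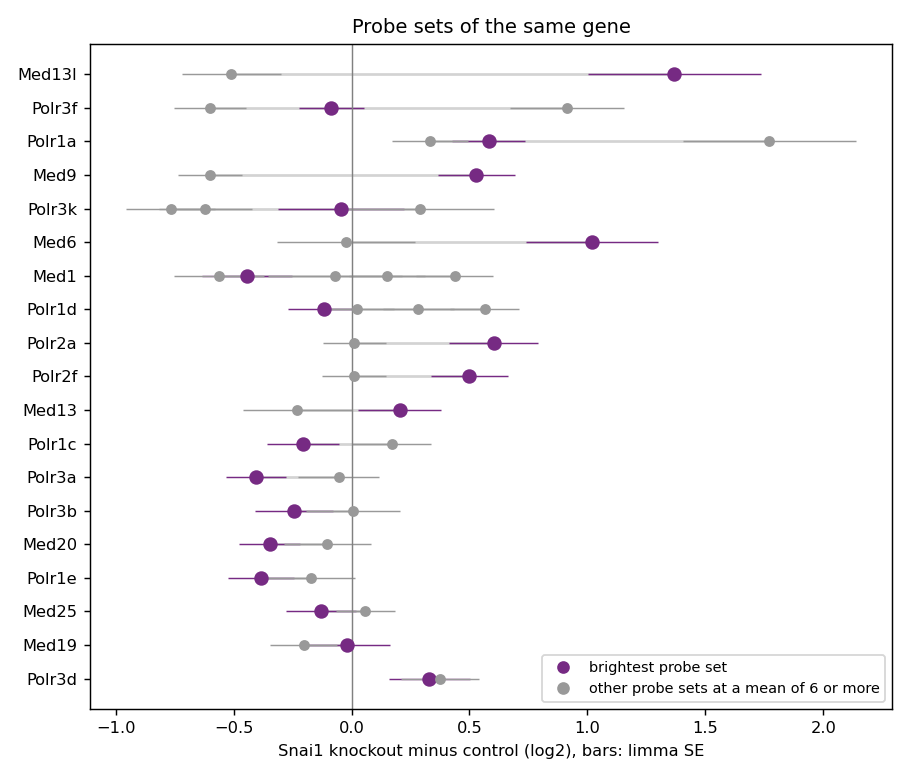
Log2 difference, knockout minus control, of each probe set with a mean of 6 or more for the 19 genes that had several, with bars for limma's standard error; purple marks the brightest. Genes are ordered by the range of their differences, from 1.88 in Med13l to 0.04 in Polr3d.

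Genomic span, the distance from a gene's start to its end, was set beside the differences because short genes lay higher across the whole comparison. In all genes whose mean reached 6, the median difference was 0.11 for spans under 10 kb, -0.09 for 10 to 40 kb and -0.27 for 40 kb or more. The subunits had medians of 0.12 (22 genes), -0.09 (22 genes) and 0.03 (11 genes) in the same bins. Polymerase II genes were short, with a median span of 6.79 kb, against 27.1 kb for polymerase I, 16.3 kb for polymerase III and 15.5 kb for Mediator. Both called genes were longer than the shortest bin, with 24823 bases for Med24 and 177981 bases for Med27. After removal of the trend with span and mean level, the differences were 0.85 (adjusted p = 0.0278) for Med24 and 1.35 (adjusted p = 0.0475) for Med27. Polr1a (0.82, adjusted p = 0.0365), Med12 (0.70, adjusted p = 0.0439) and Med13l (1.63, adjusted p = 0.0474) also passed then, and Polr2c and Polr3b were at -0.085 and 0.0034.

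**Figure D4:**
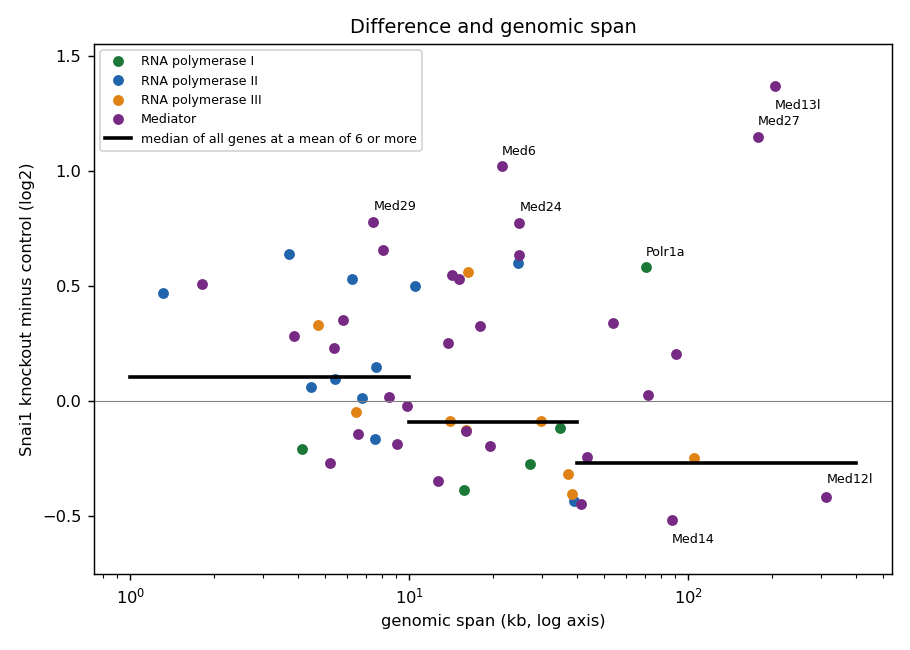
Log2 difference, knockout minus control, of the 55 subunit genes against genomic span in kb on a log axis, coloured by complex, with black lines for the median of all genes at a mean of 6 or more in 3 span bins (0.11, -0.09 and -0.27). Med27 and Med13l lie far above the line for long genes, and Med14 and Med12l below it.

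Factors that work with these enzymes were read from 5 further lists. None of 32 measured general factors of RNA polymerase II passed in limma, 13 had an unadjusted p under 0.05, and their median difference was -0.14. The largest was that of Gtf2a1, a subunit of TFIIA, at 8.03 and 7.49 in knockout cells, against 8.42 and 8.59 in controls (-0.74 ± 0.20, SE, adjusted p = 0.0727), with another bright probe set at -0.61. Among 28 elongation factors 1 fell and none rose (median -0.14). This was Rtf1, which acts with the Paf1 complex, at 8.85 and 8.77 in knockout cells, against 9.50 and 9.48 in controls (-0.67 ± 0.13, SE, adjusted p = 0.0441, and 0.0945 after removal of the span trend). Of 17 assembly factors and tail phosphatases 1 rose and none fell (median -0.11). Ruvbl2, an ATPase of the complex that helps assemble RNA polymerase II, was at 11.50 and 11.37 in knockout cells, against 9.89 and 10.38 in controls (1.30 ± 0.19, SE, adjusted p = 0.0286). None of 7 polymerase I factors passed (3 at an unadjusted p under 0.05), with Taf1a, a subunit of the promoter factor SL1, at -0.61 ± 0.17 (SE). None of 16 polymerase III factors passed (7 at an unadjusted p under 0.05), with Brf2, a subunit of TFIIIB, at 0.66 ± 0.17 (SE). Rtf1 and Ruvbl2 did not pass with any 1 array left out (adjusted p = 0.0862 to 0.172 and 0.0690 to 0.106). Against these counts, 4.14% of all genes passed in either direction, and 23.9% of all genes and 38.9% of those at a mean level of 6 or more had an unadjusted p under 0.05. The list medians stand against -0.02 over all genes and -0.09 over genes at that level, so they lay near those of brighter genes.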

How the data were processed

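Transcript levels of 4 samples were measured on single-colour Affymetrix arrays with a 3' labelling kit, per the labels' protocols. The authors deposited log2 expression values for 45101 probe sets, and the submitters' processing notes name RMA (background correction, quantile normalization, probe set summary) and limma, without versions, order or settings. Such normalization would mask a change common to most genes. No genome build was named. Array medians lay between 4.91 and 4.95, and no further scaling was applied.

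Gene names came from the platform annotation; 34945 probe sets had exactly 1 symbol, and 34741 of these matched a gene ID of the RefSeq table (GRCm38.p6), which changed 0 symbols. Knockout was compared with control by limma 3.58.1 in R 4.3.3 (lmFit, eBayes, no covariates) over 18193 genes, two-sided, with Benjamini-Hochberg adjustment over all genes and a threshold of 0.05. Differences (log2) subtract control from knockout and carry the moderated standard error (SE) and 95% interval on 2 residual and 5.31 prior degrees of freedom. The fit was tested on simulated data with planted changes and independent noise on each array. These held no replicate effect and no trend with span or RNA integrity, so the simulation cannot speak to such effects here. Genomic span was available for 18031 genes.

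The genes and lists were chosen with earlier results of these data known. Every subunit past the threshold was named, with the 2 highest and 2 lowest differences of each complex, the catalytic subunits, Polr3g, Polr3gl, Med1, Med12, Med13 and Med14, and up to 4 called genes (or the 1 with the largest difference) of each list. Other subunits named were chosen after their values were seen. The alternatives comprised 9 processing choices and the removal of each array in turn. Promoter sequences are from RefSeq (GRCm38.p6).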

Additional observations from a re-analysis of the deposited data

How the results depend on the processing

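With 2 arrays a group, counts moved with most choices. The 2 subunit genes called higher became 1 with an intensity trend in eBayes, 4 after a further quantile normalization, 6 when dimmer genes (mean under 6) were dropped, 5 after removal of the span and level trend, 0 with each gene's probe sets averaged, 0 with probe sets tested singly and 0 to 1 with each array left out. The genes called among all genes numbered 754 and became 481 with the trend, 1224 without the dimmer genes, 321 with probe sets averaged, 276 with probe sets tested singly and 4 to 50 with each array left out. The lone array was then assumed to vary like the remaining pair, and fewer samples entered the fit. Numbers of the replicates were not said to pair samples. Over all genes the difference between the replicates correlated at 0.29 between the groups (0.48 over the 56 genes), and with the replicate number as a block 17 subunit genes were called higher, 1 lower and 3092 of all genes called. The calls included Med27, Med24 and 7 of the 25 polymerase genes. The median difference of Mediator was 0.13 with probe sets averaged and 0.015 with probe sets taken singly, and 0.15 to 0.24 with an array left out. That of polymerase I was -0.018, 0.039 and -0.33 to -0.16, and that of polymerase II 0.057 to 0.33 with an array left out. The median difference of RNA polymerase III members was then -0.20 to 0.0053. No other setting moved a median by more than the spread between replicates, and 0 to 1 subunit genes were called lower throughout.

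No difference that turned its sign passed the threshold in either case. The largest of them was that of Med9, 0.53 with the brightest probe set and -0.036 with probe sets averaged. With probe sets averaged, the difference was -0.046 for Med15, 0.19 for Polr1d, 0.026 for Polr3c and 0.016 for Polr3f. With the span trend removed it was 0.17 for Cdk19, -0.091 for Med4, 0.060 for Polr1d, -0.085 for Polr2c, -0.041 for Polr2g, -0.10 for Polr2h, 0.0034 for Polr3b and 0.066 for Polr3e. Med19 was at 0.030 after quantile normalization and Polr2c at -0.0010 after centring on medians. With an array left out the ranges crossed zero for Cdk19 (-0.25 to 0.17), Med15 (-0.16 to 0.21), Med19 (-0.25 to 0.21), Med31 (-0.075 to 0.64), Med4 (-0.20 to 0.23), Med9os (-0.12 to 0.0040), Polr1d (-0.26 to 0.031), Polr2c (-0.0037 to 0.035), Polr2d (-0.028 to 0.33), Polr2g (-0.052 to 0.25), Polr2h (-0.14 to 0.27), Polr2m (-0.39 to 0.057), Polr3e (-0.20 to 0.024), Polr3f (-0.18 to 0.0053) and Polr3k (-0.43 to 0.34). The cause was not tested.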
